A study of Mus musculus with 18 samples.

Results

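A set of 10 genes known to be switched on by the transcription factor p53 was followed through kidneys of mice given a high fat diet and STZ: Cdkn1a, Mdm2, Ccng1, Bax, Bbc3, Phlda3, Zmat3, Trp53inp1, Eda2r and Aen. They were chosen by name, with earlier results of these data known. Each matched 1 row of the 19545 genes in the table, so all 10 of 10 were found. RNA of kidney from ICR mice aged 10 weeks was sequenced in 18 libraries, 3 for each of 6 groups. Control libraries came from mice whose label names no treatment. AOS libraries came from mice given AOS, a compound whose name the labels do not write out, at 10 mg/kg. Mice of the HS group had the diet together with STZ (streptozotocin, a toxin of pancreatic beta cells), so the diet and the toxin cannot be told apart. HS_AOS mice had HS and AOS at 10 mg/kg. HS_AOS_FMT and HS_control_FMT mice had HS and a faecal microbiota transplant (FMT), labelled by AOS at 10 mg/kg in the first and by control in the second. The dose of STZ, its timing, the sex of the mice and the number of mice behind a library are not given in the labels, and a p-value here reflects no more than how far libraries of a group scatter.

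The p53 protein is held at a low level in resting cells by Mdm2, a ubiquitin ligase, and it accumulates after DNA damage and other stress. It then binds pairs of short half-sites in DNA and raises the transcription of genes that halt the cell cycle, repair DNA, start apoptosis or feed back on p53 itself. In kidney the pathway is best known from injury of the tubules, where Cdkn1a is a classic responder. Neither p53 protein nor DNA damage was measured here, and RNA from a whole kidney cannot tell a change in cell numbers from a change in RNA per cell.

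The promoters of the genes are shown first because p53 binds pairs of half-sites, and promoters are 1 place where these can lie. RefSeq promoter entries of GRCm38.p6, each covering 250 bases before and 50 after a start of transcription, were matched for 8 of the 10 genes, with Zmat3 and Trp53inp1 unmatched. These entries were searched for the p53 half-site consensus of 10 letters, which reads alike on both strands, so that 1 scan covers both. At least 1 half-site lay in a window of 5 of the 8 genes (62.5%), against 9.55% of the 27025 genes with an entry. A directly adjoining pair of half-sites, allowing 1 of the 20 letters to differ, was found for 2 of the 8, Cdkn1a and Ccng1, against 22 of the 27025 genes (0.0814%). The 4 stretches below end before the start site, are written 5′ to 3′ on the strand of the gene, and carry the matched half-sites in capitals. They lie at chr17:29090876-29090977 on the plus strand (Cdkn1a), and on the minus strand at chr11:40755432-40755511 (Ccng1), chr10:117710905-117710974 (Mdm2) and chr7:45467060-45467129 (Bax).
Cdkn1a: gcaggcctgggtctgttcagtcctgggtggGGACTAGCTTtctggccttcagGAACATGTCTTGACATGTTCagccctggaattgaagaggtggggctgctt
Ccng1: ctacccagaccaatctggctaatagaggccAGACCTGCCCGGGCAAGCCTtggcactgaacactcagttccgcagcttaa
Mdm2: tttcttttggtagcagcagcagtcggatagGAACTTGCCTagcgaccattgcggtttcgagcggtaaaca
Bax: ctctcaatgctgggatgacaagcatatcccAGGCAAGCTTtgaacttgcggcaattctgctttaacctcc

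The adjoining pair of Cdkn1a ends 31 bases before its upstream start, and a single half-site begins 73 bases before it. The window at the second Cdkn1a start, 2790 bases downstream, held none. The pair of Ccng1 begins 195 bases before its start, the half-site of Mdm2 186 bases and that of Bax 201 bases. Aen was the fifth gene with a half-site, and no match was found in the windows of Bbc3, Phlda3 and Eda2r. A match is a run of letters and was not a measurement of p53 binding, and sites outside the windows were not searched. Among genes outside the 10, 4 that carry an adjoining pair were tested for expression, and 1 of them, Rps27l, was higher with the diet and STZ without control 3 (log2 0.38, adjusted p = 0.00755), when 9.34% of all genes tested were, and did not pass with all 18 libraries (0.26, 0.194). Calhm2, Cldn16 and Mthfd1 had log2 differences of 0.16, -0.07 and 0.09 there and did not pass.

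Expression was deposited as FPKM, a level per transcript length and library size, and 15773 to 17270 genes were above 0 in a library. Differences are given in log2(FPKM + 1), a scale that shrinks the changes of low genes, with p-values from limma adjusted over all 12385 genes tested and called under 0.05. All 10 genes passed the filter of at least 1 FPKM in 3 libraries. Eda2r reached 1 FPKM in HS libraries and control 3 only, so that it had to be higher there to be tested, and Bbc3 passed near the limit. One library stood apart. Control 3 correlated with the others at 0.947 to 0.965 across genes, while the lowest value among the remaining 17 was 0.964. Its 8 adrenal markers summed to 657 FPKM, against 1.33 and 1.44 in controls 1 and 2, with none of the 8 at 0, and its tubular injury markers Havcr1 and Lcn2 summed to 54.5 FPKM, against 3.41 to 12.2 elsewhere. Of the proximal tubule markers, which were above 0 in every library, Kap was at 0.107 times the mean of controls 1 and 2 in control 3, Slc34a1 at 0.658 times and Lrp2 at 0.654 times. The control group also stood apart as a whole. Its 4 germ cell markers (Prm1, Prm2, Tnp1 and Tnp2) summed to 26.1 to 37.1 FPKM in all 3 controls, with none at 0, against 0 in AOS, HS, HS_AOS and HS_AOS_FMT and at most 0.47 in HS_control_FMT. The part of this in comparisons with control was not tested. The main counts and tests are given with and without control 3.

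Control 3 also held the highest level of 18 libraries for 9 of the 10 p53 targets, a position it held for 33.7% of all tested genes. The exception was Aen, where it ranked second. Eda2r, a receptor of the TNF receptor family, stood there at 4.08 FPKM, which was 22.7 times the mean of controls 1 and 2. Phlda3, an inhibitor of Akt, was 8.86 times that mean, Cdkn1a 7.5 times and Bbc3 5.75 times, while Aen was 1.63 times and Bax 1.78 times. The median of the 10 genes in control 3 lay 1.44 above controls 1 and 2 on the log2 scale, against 0.24 for all tested genes. Adrenal markers summed to 386 FPKM in HS 3, which was the highest of its group for 1 of the 10 genes (30.4% of all tested genes). They summed to 294 FPKM in HS_AOS_FMT 2, which was the highest of its group for 1 of the 10 as well (49.8%). In HS_AOS_FMT 3 these markers summed to 51.3 FPKM and in HS_AOS_FMT 1 to 6.4 FPKM. The part of adrenal RNA or tubular injury in the control 3 values was not tested.

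**Figure D1:**
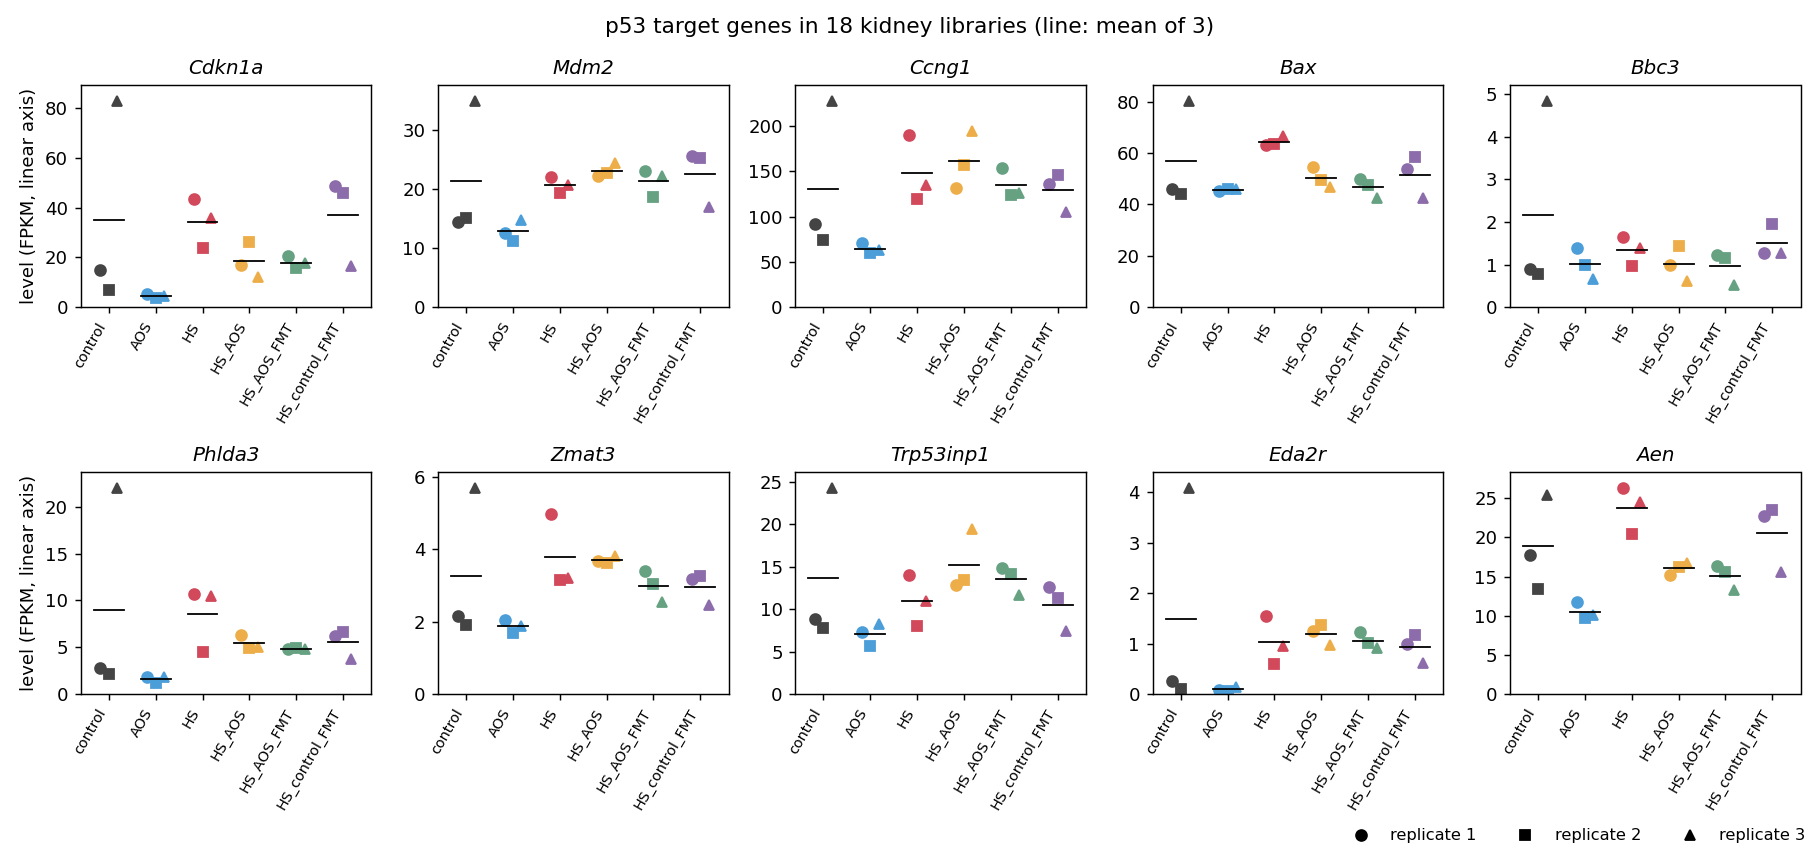
Level of each gene (FPKM, linear axis from 0, 1 panel a gene) in the 6 groups; points are the 3 libraries of a group and the line is their mean. The triangle of control 3 is the highest point in 9 panels, and the other 2 controls sit with the AOS libraries among the lower points of most panels.

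Cdkn1a, Mdm2 and Ccng1, which stop the cell cycle or feed back on p53, had higher means in libraries with the diet and STZ than in controls 1 and 2 and AOS, and Cdkn1a overlapped control 1. Cdkn1a encodes p21, the inhibitor of cyclin-dependent kinases through which p53 arrests the cycle. It stood at 14.9, 7.11 and 82.6 FPKM in controls 1, 2 and 3 and at 5.2, 3.73 and 4.62 FPKM in the AOS libraries. The 12 libraries with the diet and STZ ranged from 12.2 to 48.7 FPKM with a median of 22.2. Those 12 lay above 4 of the 6 libraries without HS, overlapped control 1, and were all below control 3. Cdkn1a lies on chromosome 17 at 29090979 to 29100722 (GRCm38), where 273 of its exon bases overlap another annotated gene on the opposite strand. The strandedness of the libraries is not given, so reads there cannot be told apart.

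Mdm2, the ligase that marks p53 for degradation and is itself a p53 target, was at 14.4, 15.1 and 34.9 FPKM in controls 1, 2 and 3 and at 12.5, 11.3 and 14.7 FPKM in the AOS libraries. With the diet and STZ it ranged from 17.1 to 25.6 FPKM (median 22.2). The lowest of these 12 libraries was above the highest of the 5 libraries without HS other than control 3. Ccng1 encodes cyclin G1, which binds a phosphatase that acts on Mdm2, and was the most abundant of the 10 genes per length. It was at 91.4, 74.3 and 227 FPKM in the controls and at 70.5, 59.4 and 62.8 FPKM in the AOS libraries. In the 12 libraries with HS it ranged from 105 to 195 FPKM (median 136), again without overlap with the 5. Mean levels over the 12 were 3.78 times those over the 5 for Cdkn1a, 1.61 times for Mdm2 and 2-fold for Ccng1.

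Among genes with roles in cell death, Eda2r moved most in proportion. It was at 0.26, 0.1 and 4.08 FPKM in controls 1, 2 and 3 and at 0.09, 0.06 and 0.15 FPKM in the AOS libraries. The 12 libraries with HS held 0.6 to 1.54 FPKM with a median of 1.01. All of them were above the 5 and below control 3, at levels so low that the 7.97-fold ratio of the means rests on a denominator of 0.132 FPKM. Aen, an exonuclease that takes part in the breakdown of DNA during apoptosis, was at 17.8, 13.4 and 25.4 FPKM in the controls and at 11.8, 9.68 and 10.1 FPKM in the AOS libraries. With HS it ranged from 13.3 to 26.3 FPKM (median 16.6), and this range overlapped controls 1 and 2 while lying above every AOS library.

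Bax, which opens the outer mitochondrial membrane, was nearly flat outside HS and control 3. It stood at 46.2, 44.0 and 80.1 FPKM in the controls, at 45.1, 46.0 and 46.1 in the AOS libraries, and at 42.3 to 66.7 (median 51.8) in the 12 with HS. In Bax 192 exon bases are shared with the model gene Gm45808 on the same strand. Bbc3 encodes PUMA, a trigger of apoptosis that acts upstream of Bax, and it stayed near 1 FPKM. It was at 0.89, 0.79 and 4.83 FPKM in the controls, at 1.38, 0.98 and 0.67 in the AOS libraries, and at 0.51 to 1.96 with HS (median 1.26). Apart from control 3, all libraries lay between 0.51 and 1.96 FPKM. Trp53inp1, a nuclear protein that promotes p53 activity and autophagy, was at 8.88, 7.84 and 24.3 FPKM in the controls and at 7.34, 5.66 and 8.29 in the AOS libraries. With HS it ranged from 7.45 to 19.5 FPKM (median 12.7), so that its lowest HS libraries overlapped the 5.

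The remaining genes act on survival signalling and RNA. Phlda3 competes with Akt for membrane lipids and thereby restrains it. It was at 2.81, 2.15 and 22.0 FPKM in controls 1, 2 and 3 and at 1.83, 1.2 and 1.86 FPKM in the AOS libraries. The 12 libraries with HS held 3.78 to 10.7 FPKM (median 5), 3.09 times the mean of the 5 and without overlap with them. Zmat3, a zinc finger protein that binds RNA and acts on splicing, was at 2.17, 1.91 and 5.69 FPKM in the controls and at 2.05, 1.69 and 1.88 in the AOS libraries. With HS it ranged from 2.46 to 4.98 FPKM (median 3.25), above each of the 5 and below control 3.

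Counted together, all 12 HS libraries lay above the 5 libraries without HS for 5 of the 10 genes (Mdm2, Ccng1, Phlda3, Zmat3 and Eda2r) when control 3 was left aside, against 1.32% of all tested genes. For Eda2r the filter fixed this direction, and the other 4 are of 9 genes. With control 3 among the libraries without HS the count was 0 of 10, against 0.202%.

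**Figure D2:**
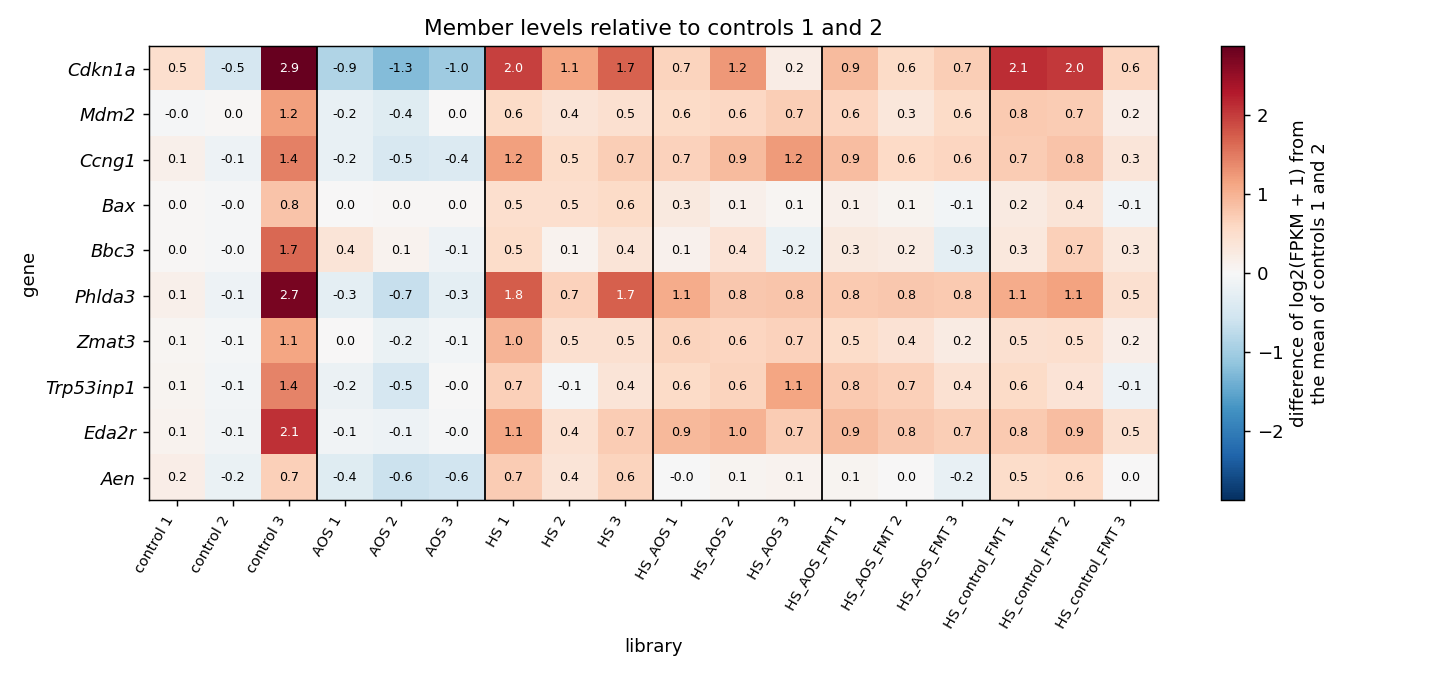
Difference of log2(FPKM + 1) of each gene (rows) in each library (columns) from the mean of controls 1 and 2, printed in each cell and coloured from blue (lower) to red (higher). Control 3 is the reddest column, with differences up to 2.88, and the median of the 10 genes is 0.25 to 0.85 in the 12 HS columns and -0.41 to -0.11 in the AOS columns.

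The test of the diet and STZ over all groups set the mean of the 4 HS groups against the mean of control and AOS. With all 18 libraries, limma called 0 of the 10 genes, while 6 were higher at an unadjusted p under 0.05 and 2.66% of all tested genes were called higher. Cdkn1a had the largest difference (log2 1.20 ± 0.386 SE, adjusted p = 0.095) and Ccng1 the smallest p (0.70 ± 0.189, adjusted p = 0.0511). Without control 3, 8 of the 10 rose, against 9.34% of the 12289 genes tested in that fit. These were Cdkn1a (log2 1.68 ± 0.259, adjusted p = 0.00232), Phlda3 (1.18 ± 0.164, 0.000994), Ccng1 (0.95 ± 0.119, 0.000611), Eda2r (0.84 ± 0.108, 0.000611), Mdm2 (0.63 ± 0.0888, 0.000994), Trp53inp1 (0.61 ± 0.142, 0.0157), Zmat3 (0.55 ± 0.0903, 0.00236) and Aen (0.50 ± 0.0977, 0.00685). Bax (0.21 ± 0.0658, adjusted p = 0.051) and Bbc3 (0.18 ± 0.13, 0.368) did not pass. Eda2r could be tested only because it was high with HS, which leaves 7 of the other 9. With no filter and without control 3, Eda2r had the same difference (adjusted p = 0.000218) and 8 of the 10 were called, against 5.92% of 18685 genes. The median difference of the 10 was 0.62, against 0.07 over all genes tested. Kap, an androgen-regulated protein of the proximal tubule, moved with this result: it was at 144521 to 155154 FPKM in the 5 libraries without HS other than control 3 and at 66020 to 137570.27 FPKM in the 12 with HS. The other markers of that segment overlapped, Slc34a1 at 2530 to 2908 and 2104 to 3041 FPKM and Lrp2 at 142 to 161 and 119 to 184 FPKM. Summed markers of the other 10 cell types and states listed overlapped between the 5 and the 12. Their part in the differences was not tested.

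A comparison that holds no control library was added after the data had been seen, because by their labels HS_AOS and AOS differ by the diet and STZ alone. All 3 HS_AOS libraries lay above all 3 AOS libraries for 9 of the 10 genes (all but Bbc3), against 26.3% of all tested genes. Eda2r is 1 of these 9, and it could be tested only because it was high with HS. With the spread estimated over all 18 libraries, 1 of the 10 rose, Ccng1 (161 ± 31.8 against 64.2 ± 5.68 FPKM, SD, n = 3 each, log2 1.30, adjusted p = 0.0357), against 2.82% of all tested genes called higher. Leaving out any of 5 of the 6 libraries compared, all but HS_AOS 1, ended that call (adjusted p up to 0.121). With control 3 removed from the estimate of the spread, 8 rose (9.22% of all genes), the largest being Cdkn1a, at 18.4 ± 7.05 against 4.52 ± 0.74 FPKM (log2 1.76, adjusted p = 0.0164). Bax (log2 0.13, adjusted p = 0.395) and Bbc3 (0.00, 0.995) did not pass. Without a filter and without control 3 the count was 8 as well (4.84% of all genes), with Eda2r at log2 0.99 (adjusted p = 0.00642). With only these 2 groups in the fit, 7 of the 9 genes that then passed the filter were called, against 2.77% of all genes tested called higher. Eda2r did not pass the filter there, and Bax and Bbc3 were again not called. Several marker sums moved with this comparison without overlap. In HS_AOS and AOS the thick ascending limb markers summed to 256 to 494 and 659.82 to 1087 FPKM, those of leukocytes to 12.4 to 19.3 and 20 to 24.9 FPKM, and Kap stood at 66020 to 127320 and 144521 to 155154 FPKM. Podocyte markers were higher in HS_AOS (28.7 to 37.3 against 19.4 to 23.3 FPKM), as were those of proliferation (1.41 to 2.34 against 0.66 to 0.76 FPKM), and the part of these in the differences was not tested.

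**Figure D3:**
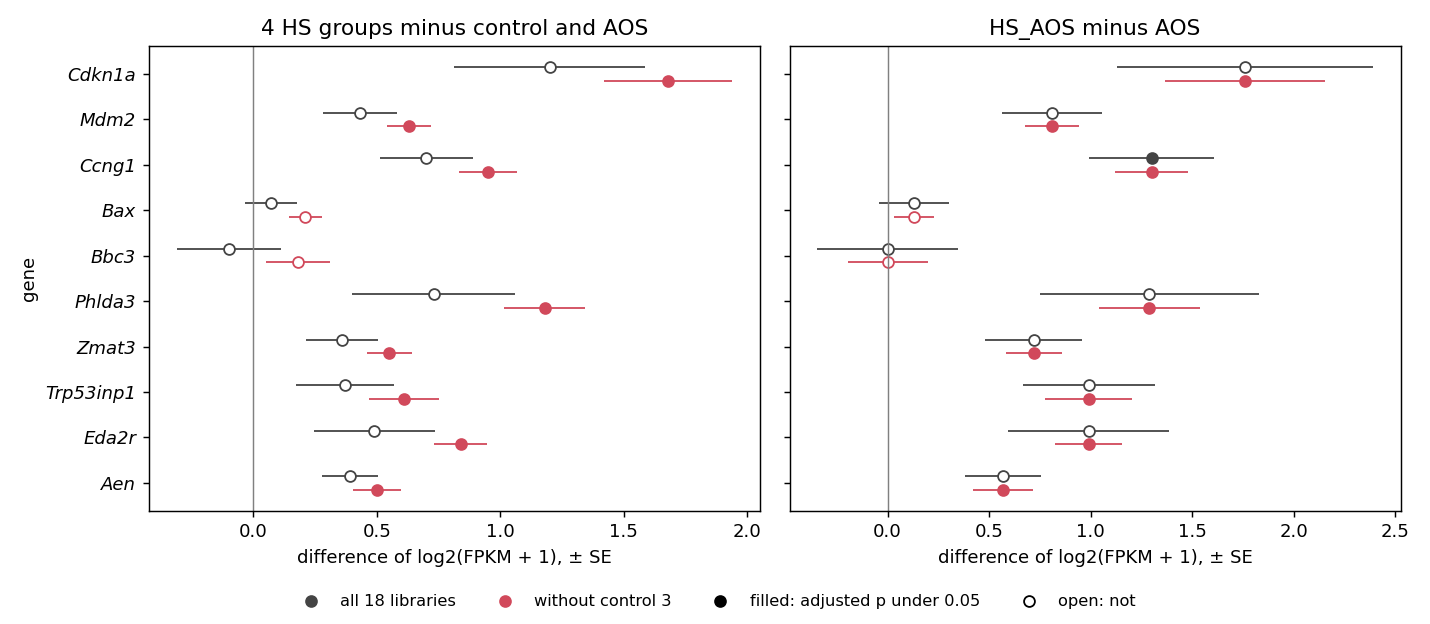
Difference of log2(FPKM + 1) with its standard error for each gene, for the 4 HS groups minus control and AOS (left) and for HS_AOS minus AOS (right); dark points are fits to all 18 libraries, red points leave out control 3, and filled points have an adjusted p under 0.05. In both panels 8 red points are filled, and the open ones are Bax and Bbc3.

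HS alone against control gave no call among these genes in the main fits, with or without control 3. With all 18 libraries 0 of the 10 genes passed (0.0646% of all genes), and 0 had an unadjusted p under 0.05. Without control 3 limma again called 0 of the 10 (0.0488%), although all 10 differences were positive and 8 had an unadjusted p under 0.05. The shares of all genes by sign or at an unadjusted p are not given, so these counts do not set the 10 genes apart. Without control 3 and with no filter, 3 were called higher, Bax (adjusted p = 0.0328), Phlda3 (0.0207) and Eda2r (0.0379). In that fit 325 of 18685 genes were called, 65 of them higher. Levels of the 3 HS libraries lay above both remaining controls for 9 genes, all but Trp53inp1, against 26.5% of tested genes. They lay above all 3 AOS libraries for 8 genes, all but Bbc3 and Trp53inp1, against 23.7%. Eda2r is in both counts, and it could be tested only because it was high with HS. Phlda3 was at 10.7, 4.46 and 10.4 FPKM in HS 1, 2 and 3 (log2 1.38 without control 3, adjusted p = 0.114). Bax was at 63.1, 63.5 and 66.7 FPKM (log2 0.51, adjusted p = 0.114). The direction itself depended on control 3 for Bbc3, whose difference was -0.22 with it and 0.33 without it, and for Trp53inp1 (-0.15 and 0.33). Podocyte markers summed to 31.68 to 35.02 FPKM in HS against 21.77 and 17.81 in controls 1 and 2. Those of proliferation summed to 1.7 to 2.99 against 1.14 and 1.03, and erythroid ones to 6949 to 15211 against 5409 and 6191. Leukocyte markers (17.48 to 18.17 against 24.52 and 22.05) and proximal tubule markers, Kap included (87822 to 103500 against 153550 and 148510), were lower in HS. The part of these in the differences was not tested.

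Each treated HS group was also compared with control, and the same controls served in all of these comparisons. None of the 10 passed with all 18 libraries in HS_AOS, HS_AOS_FMT or HS_control_FMT (2.87%, 0.46% and 3.27% of all genes called). By limma 0 of the 10 had an unadjusted p under 0.05 in any of the 3. Without control 3, HS_AOS had 4 higher genes (5.26%), namely Eda2r (log2 0.90, adjusted p = 0.0138), Ccng1 (0.94, 0.0169), Zmat3 (0.63, 0.0275) and Mdm2 (0.61, 0.0285). Eda2r could be tested in this fit only because it was high with HS. In HS_AOS it passed with no filter as well (adjusted p = 0.00745). HS_AOS_FMT had 1 (2.37%), Eda2r (0.80, adjusted p = 0.0352, or 0.0179 with no filter). That call ended when the GC content and length trend was removed as well (0.73, adjusted p = 0.0644) and when the 3 adrenal-rich libraries were left out (0.81, 0.116). HS_control_FMT had 0 (1.96%), with 7 at an unadjusted p under 0.05 and Eda2r (adjusted p = 0.0537) and Mdm2 (0.0571) nearest. Of these 3 groups only HS_AOS_FMT and HS_control_FMT were compared with each other, below. HS_AOS was tested against neither, so the counts do not tell whether the 3 groups differ.

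The next question was whether AOS or a transfer moved these genes in HS kidneys. None of the 10 was called in HS_AOS, HS_AOS_FMT or HS_control_FMT against HS with all 18 libraries (2.3%, 0.977% and 0.751% of all genes called), and 1, 2 and 0 of the 10 were lower at an unadjusted p under 0.05. Cdkn1a was at 43.4, 23.9 and 35.8 FPKM in HS, at 16.9, 26.1 and 12.2 in HS_AOS and at 20.4, 15.7 and 17.6 in HS_AOS_FMT. The 3 HS_AOS_FMT libraries were below all HS libraries, and HS_AOS 2 overlapped HS 2. The differences from HS were -0.89 ± 0.63 (adjusted p = 0.45) and -0.87 ± 0.63 (adjusted p = 0.497), and neither passed without control 3 (0.174 and 0.2). HS_control_FMT was at 48.7, 45.8 and 16.5 FPKM, with a difference of 0.00 ± 0.63 from HS (adjusted p = 1, or 0.998 without control 3) and libraries on both sides of the HS range. Without control 3, 3, 4 and 1 of the 10 were lower at an unadjusted p under 0.05. Mdm2 went the other way in HS_AOS, where its 3 libraries were above the 3 of HS as for 13.6% of tested genes (log2 0.15, adjusted p = 0.768), and Trp53inp1 had a difference of 0.44 with overlap (adjusted p = 0.467, or 0.208 without control 3).

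Aen and Bax were the genes whose 3 HS_AOS and 3 HS_AOS_FMT libraries all lay below the 3 HS libraries, a pattern that 11.1% and 13.7% of all tested genes showed as well. Aen was at 26.3, 20.4 and 24.5 FPKM in HS, at 15.3, 16.3 and 16.8 in HS_AOS and at 16.4, 15.5 and 13.3 in HS_AOS_FMT. Its differences from HS were -0.52 ± 0.187 (adjusted p = 0.136) and -0.62 ± 0.187 (0.106), and both passed when control 3 was left out of the spread (0.0474 and 0.0313). Bax, at 63.1 to 66.7 FPKM in HS, was at 54.4, 49.6 and 46.8 in HS_AOS and at 49.96, 47.7 and 42.6 in HS_AOS_FMT. Its differences were -0.35 ± 0.171 (adjusted p = 0.259) and -0.46 ± 0.171 (0.174), which passed without control 3 in the spread (0.0467 and 0.0234), where 6.74% and 5.04% of all genes were called. The transcript of Bax has a GC content of 63.5%, higher than 99.4% of tested genes, and with each library's trend in GC content and length removed its differences were 0.02 in HS_AOS and -0.14 in HS_AOS_FMT, and did not pass without control 3 either (adjusted p = 0.944 and 0.477). Aen with that trend removed and control 3 left out had -0.56 (adjusted p = 0.0754) and -0.67 (0.0462). Without the 3 adrenal-rich libraries neither gene passed in either group (adjusted p = 0.184 to 0.232), nor with the compared groups alone in the fit (0.0528 to 0.195). Without control 3 and with no filter, Bax in HS_AOS_FMT still passed (0.0353) and the other 3 differences did not (0.0501 to 0.0746). Erythroid markers moved with both comparisons, at 6949 to 15211 FPKM in HS, 3192 to 4677 in HS_AOS and 3235 to 4080 in HS_AOS_FMT. In HS and HS_AOS the thick ascending limb markers summed to 499.87 to 780 and 256 to 494 FPKM, and the tubular injury markers to 6.33 to 11.7 and 3.41 to 5.99 FPKM. The part of these in the differences was not tested. HS_control_FMT was at 53.6, 58.6 and 42.3 FPKM for Bax, below every HS library as were 18.8% of tested genes, with a difference of -0.33 (adjusted p = 0.377, or 0.0876 without control 3, where 2.85% of all genes were called). For Aen it was at 22.7, 23.4 and 15.5 FPKM and overlapped HS (-0.21, adjusted p = 0.609, or 0.424 without control 3). Podocyte markers were lower in HS_control_FMT than in HS (20.41 to 31.06 against 31.68 to 35.02 FPKM). So were those of proliferation (0.52 to 1.66 against 1.7 to 2.99 FPKM) and of adrenal (0.92 to 0.98 against 1.44 to 386 FPKM). Their part was not tested either.

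**Figure D4:**
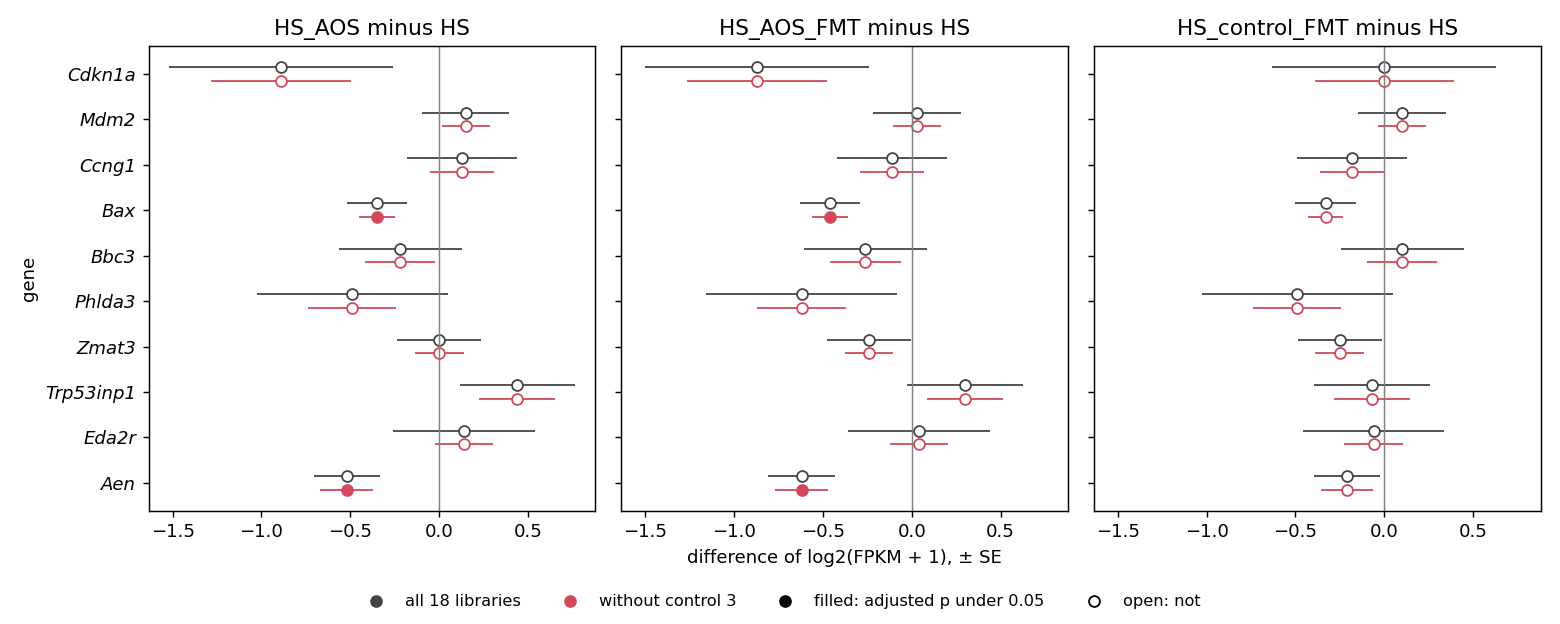
Difference of log2(FPKM + 1) from HS with its standard error for each gene in HS_AOS, HS_AOS_FMT and HS_control_FMT; dark points are fits to all 18 libraries, red points leave control 3 out of the spread, and filled points have an adjusted p under 0.05. Filled points appear for Bax and Aen only, in the first and second panels, at -0.35 to -0.62.

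The 2 transfers were compared with each other, and 0 of the 10 genes passed (3.99% of all genes called, or 9.3% without control 3). By limma's unadjusted p, 1 of the 10 was under 0.05. This was Aen, with a difference of -0.41 ± 0.187 between HS_AOS_FMT and HS_control_FMT (adjusted p = 0.239, or 0.0977 without control 3). In mice without HS, AOS libraries lay below all 3 controls for 4 of the 10 genes (Cdkn1a, Ccng1, Phlda3 and Aen), against 10.1% of all tested genes. None of the 10 was called by limma there (0.0646% of all genes), although 6 were lower at an unadjusted p under 0.05, or 2 without control 3, where 0% of all genes were called. Cdkn1a had a difference of -2.01 ± 0.63 (adjusted p = 0.674), which was -1.05 without control 3 (adjusted p = 0.998). The effect of AOS in HS minus its effect without HS was called by limma for 0 of the 10 (0.0727% of all genes), with adjusted p-values of 0.275 to 0.876 and 3 genes at an unadjusted p under 0.05. Without control 3 it was again called for 0 of the 10 (0% of all genes), with 1 gene at an unadjusted p under 0.05.

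In some groups 1 library stood high or low for most of these genes. HS 1 was the highest HS library for 9 of the 10 genes (33.4% of all tested genes) and HS 2 the lowest for 9 (30.2%). HS_AOS_FMT 1 was the highest of its group for 9 (29.4%). HS_control_FMT 3 was the lowest of its group for all 10, but it was the lowest for 64% of all tested genes as well. No library stood out in this way in HS_AOS, where libraries 1, 2 and 3 were the highest for 2, 3 and 5 genes. In AOS, libraries 1 and 3 were each the highest for 5, and AOS 2 was the lowest for 8 (38.3%). As a description, the 45 pairs among the 10 genes had Pearson correlations of 0.47 to 0.951 over the 18 libraries (median 0.8) and of 0.0719 to 0.946 over the 17 without control 3 (median 0.754). After subtracting each group's mean in the 17, the median was 0.606 and 44 of 45 pairs were positive, against a median of 0.129 between these genes and all others tested. Points of a correlation share their library, and with it depth and composition.

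The pattern of Cdkn1a over the 18 libraries was most like that of Gdf15, a secreted stress cytokine, with Pearson r = 0.912 among 11965 genes, followed by Tnfaip1 (0.906), Sgk1 (0.886), Nmt2 (0.885) and Igf2bp2 (0.885). Gdf15 and Tnfaip1 also led over the 17 libraries without control 3 (0.898 and 0.882). The mean pattern of the 10 genes was most like that of Psrc1 (r = 0.95), Pgm1 (0.946), Mapkapk3 (0.945), Tmem43 (0.941) and Sulf2 (0.941). Psrc1, which encodes a protein of the mitotic spindle, led without control 3 too (0.928). It was at 0.34, 0.25 and 9.18 FPKM in controls 1, 2 and 3, at 0.26, 0.09 and 0.21 FPKM in AOS, and at 3.1, 1.18 and 1.79 FPKM in HS. Like Eda2r, it reached 1 FPKM only in HS libraries and control 3. These likenesses were picked from all genes and carry no test.

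The message of p53 itself, Trp53, was called in neither fit. It was at 21.3 FPKM in control, 20.4 in AOS, 24.2 in HS, 23.5 in HS_AOS, 21.6 in HS_AOS_FMT and 21.7 in HS_control_FMT on average. Its difference between the HS groups and the others was 0.12 (adjusted p = 0.396), or 0.20 without control 3 (0.0557). Mdm4, a partner of Mdm2 that restrains p53, had differences of 0.09 (adjusted p = 0.687) and 0.20 (0.17). Of 51 further genes listed for the pathway, 47 were tested. In the HS groups against the others 3 of the 47 rose and 1 fell with all 18 libraries (2.66% of all genes higher), with a median difference of 0.12 against 0.03 over all genes. Those that rose were Plk3, a stress kinase (log2 1.35, adjusted p = 0.0234), Pmaip1, which encodes the apoptosis trigger NOXA (0.80, 0.0466), and Sesn2, an inhibitor of mTORC1 signalling (0.31, 0.0488). Perp, a membrane protein of desmosomes, fell by 0.20 (adjusted p = 0.0371).

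Without control 3, 18 of the 47 rose (9.34% of all genes) and 1 fell, with a median of 0.21 against 0.07. Psrc1 could be tested only because it was high with HS, and with no filter the count was 18 again, with Psrc1 at an adjusted p of 0.00143. The 4 with the smallest p were Plk2, a kinase related to Plk3 (log2 0.99, adjusted p = 0.000174), Psrc1 (0.96, 0.00169), Pmaip1 (1.03, 0.00185) and Tnfrsf10b, a death receptor (0.56, 0.00232). In HS_AOS against AOS 0 of the 47 were called and 14 had an unadjusted p under 0.05 with all 18 libraries, and 10 rose with control 3 left out of the spread (9.22% of all genes). In HS against control 0 of the 47 were called by limma in either fit, with 1 lower at an unadjusted p under 0.05 in the first and 19 higher and 1 lower in the second. Between the transfers Atm, the kinase that signals DNA breaks to p53, was at 2.1 FPKM in HS_AOS_FMT and 1.29 FPKM in HS_control_FMT and was higher in the first (log2 0.44, adjusted p = 0.0323), the only call among the 47 there with all 18 libraries. Without control 3 it passed again (adjusted p = 0.00999), beside Xpc, which recognises DNA damage (11.7 against 9.21 FPKM, log2 0.32, adjusted p = 0.0364). None of the 47 was called by limma in HS_AOS, HS_AOS_FMT or HS_control_FMT against HS in either fit. With all 18 libraries 3, 3 and 1 of them were higher and 1, 0 and 3 lower at an unadjusted p under 0.05, and without control 3 the counts were 3, 4 and 2 higher and 1, 1 and 9 lower.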

How the data were processed

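The 10 genes, the gene lists and the named comparisons were chosen with earlier results of these data known. The authors deposited 1 FPKM value per gene and library, rounded to 2 decimals. Bowtie 0.12.2 and the build mm10 are named per the submitters' processing notes. The read counter, annotation and strandedness were not given in the sources used here. That the values are FPKM was read from them, since the library totals of value times transcript length varied by 0.929% (coefficient of variation) and plain totals by 4.29%. Read counts were not used, so depth is unknown and no interval of counting error is given.

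Groups were taken from the labels, and all 18 columns matched a sample. The scale was log2(FPKM + 1). A gene was tested if 3 or more libraries reached 1 FPKM (12385 genes, with 7160 left out). One mean per group was fitted in limma 3.58.1 (R 4.3.3, trend and robust options, 12 residual degrees of freedom), and p-values were adjusted by the method of Benjamini and Hochberg over all genes of a comparison, at 0.05. The script was tested on simulated data. Counts at an unadjusted p are given throughout without the share of all genes at that mark, and do not set a list of genes apart. Of the other pathway genes the text names Trp53, Mdm4 and at most 4 called genes per comparison with the smallest p, and of genes with a similar pattern the first 5. HS_AOS against AOS, the fits without control 3 where no control is compared, and those that joined leaving out control 3 with another change (GC trend removed, quantile normalization, replicate block or no filter) were added after the data had been seen. The replicate numbers were not taken as pairs, since correlations of same-numbered deviations from group means ran from -0.356 to 0.312 and 14 of 45 were above 0.1. The fits tried besides were a replicate block, quantile normalization, a pseudocount of 0.1, no filter, a filter at 5 FPKM, removal of a trend in GC content and transcript length from every library (splines with 4 degrees of freedom), the compared groups alone, each library left out, and the 3 adrenal-rich libraries (control 3, HS 3 and HS_AOS_FMT 2) left out. That last fit kept HS_AOS_FMT 3, whose adrenal markers summed to 51.3 FPKM.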

Additional observations from a re-analysis of the deposited data

How the results depend on the processing

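Control 3 decided most calls. Leaving out 1 library at a time, the number of the 10 genes called ran from 0 to 8 for the HS groups against the others, 0 to 4 for HS_AOS against control, 0 to 1 for HS_AOS_FMT against control and 0 to 1 for HS_AOS against AOS, and was 0 in the other 8 comparisons. Apart from HS_AOS against AOS, the highest count was the one without control 3. For the HS groups against the others the count was 1 with a pseudocount of 0.1 or a filter at 5 FPKM (Ccng1 in both). It was 8 when the 3 adrenal-rich libraries were dropped (679 of 12154 genes higher). With only control 3 dropped it was 9 with the GC content and length trend removed (1199 of 12173) and 8 with quantile normalization (467 of 12289). It was then 8 with no filter (1107 of 18685) and 9 with the replicate block (1422 of 12289). For HS_AOS against AOS it was 0 with the replicate block, without a filter or with the GC trend removed, where Ccng1 had an adjusted p of 0.0531 to 0.0842. It was 8 without the adrenal-rich libraries (830 of 12154 genes higher) or without control 3 (1133 of 12289), and 7 with the compared groups alone (324 of 11707). Without control 3 it was also 9 with the GC trend removed (656 of 12173) and 8 with quantile normalization (452 of 12289). It was then 8 with no filter (904 of 18685) and 8 with the block (1189 of 12289). Without control 3 and with the block, HS against control gave 3 (Bax, Phlda3 and Zmat3), HS_AOS against HS 2, HS_AOS_FMT against HS 2, HS_AOS against control 4, HS_AOS_FMT against control 1 and HS_control_FMT against control 2. Over all genes the first 5 of these then called 92, 895, 615, 1191 and 530 of 12289 in either direction. Without control 3 and with quantile normalization the last 5 of these comparisons gave 2, 2, 3, 1 and 2. Over all genes the first 4 of those 5 called 1072, 666, 677 and 248 of 12289. Without control 3 and with no filter the same 5 gave 0, 1, 4, 1 and 1, and HS against control gave 3. Over all genes the same 5 called 550, 412, 1117, 723 and 695 of 18685. Without control 3 and with the GC trend removed, HS_AOS_FMT against HS gave 1 (Aen), HS_AOS against control 6 and HS_control_FMT against control 1. In that fit HS_AOS against HS and HS_AOS_FMT against control gave none. The numbers of all genes called are not given beside these counts, so the counts do not set the 10 genes apart. The same holds for HS_control_FMT against control with the block or with quantile normalization. HS_AOS against HS and HS_AOS_FMT against HS each gave 2 with control 3 out of the spread. HS_AOS against control gave 4 without the adrenal-rich libraries (618 of 12154 genes called). The replicate block on all 18 libraries changed no other count.

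Signs that turned were of differences that did not pass with all 18 libraries. Bax in HS_AOS against HS, which passed without control 3 (-0.35, adjusted p = 0.0467), was 0.02 (adjusted p = 0.944) with the GC trend removed as well. In HS against control, Bbc3 became 0.31 without the adrenal-rich libraries and, without control 3, 0.20 with the GC trend removed or quantile normalization and 0.43 with the block, while Trp53inp1 became 0.32, 0.41, 0.24 and 0.33 in the same order. Without control 3 alone or also with no filter, Bbc3 (0.33) and Trp53inp1 (0.33) turned as well. Over the libraries left out there, Cdkn1a ran from -0.08 to 1.60, Mdm2 from -0.15 to 0.46, Bbc3 from -0.52 to 0.33, Phlda3 from -0.06 to 1.38, Trp53inp1 from -0.43 to 0.33 and Eda2r from -0.34 to 0.76. Eda2r ran from -0.21 to 0.90 in HS_AOS against control and from -0.30 to 0.80 in HS_AOS_FMT against control, where it became -0.01 with the GC trend removed. In HS_AOS against HS, Bax became 0.02 with the GC trend removed, and between the transfers 0.05. Cdkn1a in HS_control_FMT against HS became 0.05 with quantile normalization, the GC trend removed or no adrenal-rich libraries, and ran from -0.27 to 0.49 over the libraries left out. Bax in AOS against control became 0.02, 0.00, 0.01 and 0.06 without the adrenal-rich libraries or without control 3 with each correction, and ran from -0.40 to 0.02. In the HS groups against the others Bbc3 became 0.16, 0.24, 0.09 and 0.23 in that order (0.18 with no filter and control 3 out) and ran from -0.24 to 0.18, and Bax ran from 0.00 to 0.21. In HS_AOS against AOS Bbc3 became 0.20 with the GC trend removed and ran from -0.15 to 0.15. The alternatives counted next include fits without control 3, dropped with another change, with the adrenal-rich libraries, or alone where no control is compared. Of 598 differences of single genes, each compared library left out in turn not counted, 428 kept their direction and side of the threshold. Another 135 newly passed, 3 no longer passed and 32 turned. The cause of these changes was not tested. Counts over all genes moved as well: HS_AOS against HS had 285 called genes, 1 with the GC trend removed and 828 with control 3 out of the spread, and the HS groups against the others had 481, or 1421 without control 3.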

Other observations

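Relatives of the p53 targets outside the pathway list mostly did not pass in the HS groups against the others. Of 7 tested members of the BCL2 family, which sets the threshold for apoptosis, 1 rose with all 18 libraries (2.66% of all genes) and 1 without control 3 (9.34%). Both times this was Mcl1, a protector of mitochondria (log2 0.37, adjusted p = 0.0382, or 0.47 and 0.00153 without control 3). Bcl2, another protector, had a difference of 0.04 (adjusted p = 0.817). Of 5 other inhibitors of cyclin-dependent kinases limma called 0 with all 18 libraries and 0 had an unadjusted p under 0.05. Without control 3, 1 of the 5 rose, Cdkn1c, which encodes p57 (log2 0.47, adjusted p = 0.028), against 9.34% of all genes. Mcl1, Bcl2 and Cdkn1c were picked with their values known.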
